A study of Mus musculus with 12 samples.

Results

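The genomic sites of RXR, the retinoid X receptor, were compared between mouse embryonic stem (ES) cells given the RXR agonist LG268 and control ES cells. The 2 peak lists of this comparison hold 3178 of the 76731 peaks of the whole series, 2089 with LG268 and 1089 in the control. A peak was called shared if it overlapped a peak of the other list by at least 1 bp, and otherwise LG268 only or control only. This gave 786 shared and 1303 LG268-only peaks in the LG268 list, and 789 shared and 300 control-only peaks in the control list. The shared counts differ because 6 LG268 peaks overlapped 2 control peaks and 3 control peaks overlapped 2 LG268 peaks.

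Both groups are the wild-type E14 line, grown without feeder cells on gelatin in serum medium with leukemia inhibitory factor, and neither carries a transgene or a deletion. The LG268 cells received LG268 at 1 µM for 24 h. The control is labelled only as such, and the treatment protocol names dimethylsulfoxide as the vehicle. Chromatin was fixed with disuccinimidyl glutarate and then formaldehyde, and immunoprecipitated with an RXR antibody or, for the mark of active promoters and enhancers H3K27ac, with an antibody against it. Other lists of the series, used here only as further readouts of the same sites, are RXR in ES cells after 24 h of RA (all-trans retinoic acid) or GW3965 (an LXR agonist) at 1 µM, RXR at day 8 and day 16 of neural differentiation (2 libraries each), and H3K27ac in the control and LG268 cells. RXR was mapped in 1 library with LG268 and 1 library in the control, so no test between the conditions was possible, and a ligand effect cannot be told apart from a difference between the libraries. No read totals are in the files, so the depth of either library is unknown. Intervals below are exact 95% intervals on shares of peaks and cover counting error only.

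RXR is the common partner of a large group of nuclear receptors. It binds DNA with RAR, the retinoic acid receptor, with LXR, the oxysterol receptor, with PPAR, the fatty acid receptor, and with others, on pairs of a short half-site set in tandem, and the spacing between the half-sites favours one partner or another. LXR and PPAR dimers can be activated through the RXR ligand alone, whereas the RAR dimer is usually held to need the RAR ligand. LG268 is a rexinoid, a synthetic ligand selective for RXR.

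Promoter sequences show what these sites look like at single bases. They come from RefSeq (GRCm38.p6, the same assembly as mm10), run 5′ to 3′ on the gene's strand, and carry in capitals each half-site read on either strand. The half-sites searched were AGGTCA as the common form, AGTTCA with 1 base changed, GGGTCA with another base changed, and GGTTCA with both of these changes. The first set gives the 250 bases before the start of Rarb, Fasn and Acsl3, which hold a peak in both lists. Rarb encodes a retinoic acid receptor, Fasn the fatty acid synthase and Acsl3 a long-chain acyl-CoA synthetase.
Rarb (chr14:16575477-16575726, minus strand): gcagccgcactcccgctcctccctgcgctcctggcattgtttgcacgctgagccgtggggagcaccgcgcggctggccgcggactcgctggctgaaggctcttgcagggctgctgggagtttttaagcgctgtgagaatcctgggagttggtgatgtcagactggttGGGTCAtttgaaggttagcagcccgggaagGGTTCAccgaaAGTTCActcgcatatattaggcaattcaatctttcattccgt
Fasn (chr11:120824548-120824797, minus strand): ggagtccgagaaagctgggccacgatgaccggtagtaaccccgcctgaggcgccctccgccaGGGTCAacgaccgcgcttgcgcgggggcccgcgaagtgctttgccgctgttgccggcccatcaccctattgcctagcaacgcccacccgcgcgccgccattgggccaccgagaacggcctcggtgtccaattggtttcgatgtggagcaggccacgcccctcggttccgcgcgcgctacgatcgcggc
Acsl3 (chr1:78657575-78657824, plus strand): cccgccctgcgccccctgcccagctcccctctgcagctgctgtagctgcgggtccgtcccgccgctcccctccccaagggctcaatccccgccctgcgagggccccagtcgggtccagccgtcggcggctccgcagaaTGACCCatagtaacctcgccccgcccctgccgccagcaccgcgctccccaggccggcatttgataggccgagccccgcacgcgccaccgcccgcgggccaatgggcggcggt

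The Rarb promoter holds 3 half-sites, of which GGTTCA and AGTTCA form a direct repeat with 5 bases between them, from -53 to -37 of the start. Fasn and Acsl3 hold 1 half-site each in this window. A single half-site of these 4 kinds is common. It is present in the 250 bases before the start in 38.6% of all 32851 promoter windows, in 53.7% of the 164 windows with a shared peak, 51.6% of the 283 with an LG268-only peak and 49.1% of the 55 with a control-only peak. Median GC content was 52.7% over all windows and 63.0% in each of the 3 classes, and its part in these shares was not tested.

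A direct repeat of 2 such half-sites with 1, 2, 4 or 5 bases between them, searched on both strands over the 300 bases from 250 before to 50 after the start, was rare. It was present in 218 of all windows (0.664%), in 4 windows with a shared peak (2.44%, interval 0.669 to 6.13), in 7 with an LG268-only peak (2.47%, 1.00 to 5.03) and in 0 of 55 with a control-only peak (interval up to 6.49%). All 7 matches in windows with an LG268-only peak had a spacing of 1 base, the arrangement known for RXR with PPAR and with several orphan receptors. In all windows this spacing was found in 0.222%, and in windows with a shared peak in 0 of 164 (interval up to 2.22%). The matches with a shared peak besides Rarb had a spacing of 4 (Chchd1) and of 2 (Casd1 and Zfp335os). The windows of Ranbp1 and Trmt2a, both among the 7, are opposite sides of 1 promoter with the same element and the same peak. A window had only to overlap a peak. The Gm40303 element lay outside its peak (chr5:53267080-53267289), and the other matched elements lay inside theirs. The elements are printed with short flanks to show which letters lay in windows with which class of peak. Those with shared peaks come first and those with LG268-only peaks follow.
Chchd1 (chr14:20703011-20703042, plus strand, spacing 4): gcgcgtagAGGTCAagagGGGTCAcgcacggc
Casd1 (chr6:4600750-4600843, plus strand, spacing 2): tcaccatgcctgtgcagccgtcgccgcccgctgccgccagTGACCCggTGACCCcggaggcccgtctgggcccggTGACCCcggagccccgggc
Zfp335os (chr2:164911183-164911270, plus strand, spacing 2): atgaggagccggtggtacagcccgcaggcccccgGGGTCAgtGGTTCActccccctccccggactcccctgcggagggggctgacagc
Ranbp1 (chr16:18248695-18248758, minus strand, spacing 1): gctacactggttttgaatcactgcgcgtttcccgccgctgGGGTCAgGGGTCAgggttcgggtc
Ranbp17 (chr11:33513832-33513924, minus strand, spacing 1): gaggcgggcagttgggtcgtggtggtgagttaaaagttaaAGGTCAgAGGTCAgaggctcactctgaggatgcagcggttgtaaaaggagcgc
Pam16 (chr16:4624917-4624945, minus strand, spacing 1): gtctccctTGACCTcTGACCCaccagcaa
Kif6 (chr17:49615196-49615221, plus strand, spacing 1): actcggaaAGGTCAaGGGTCAgtgcg
Gm40303 (chr5:53267324-53267377, minus strand, spacing 1): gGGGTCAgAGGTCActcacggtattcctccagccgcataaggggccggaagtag
Ndufs6 (chr13:73328447-73328475, minus strand, spacing 1): gacgcgtgGGGTCAaGGGTCAccggcaag

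The peaks that overlapped these windows ranged from high to low in the LG268 list, where rank 1 is the highest score. The Rarb peak had rank 78, Chchd1 rank 372, Casd1 rank 524 and Zfp335os rank 1420, and the LG268-only peaks ran from rank 603 (Ranbp1) to rank 1963 (Ndufs6). Letters outside these windows were not searched, since peaks away from promoters have no sequence in the tables used here. A match is a description of the sequence in a window that overlaps a peak.

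LG268-only peaks made up 62.4% of their list (interval 60.3 to 64.5) and control-only peaks 27.5% of theirs (24.9 to 30.3). The LG268 list was then limited to its 1089 highest scores, the length of the control list. In this setting 478 peaks were LG268 only (43.9%, 40.9 to 46.9) and 472 control only (43.3%, 40.4 to 46.4). Near equality of these counts follows from the equal list lengths, since almost every shared peak overlapped a single peak of the other list. It therefore says nothing about gain against loss of sites. Most single-list peaks lay far from the other list. The median gap to its nearest peak was 445 kb for LG268-only and 174 kb for control-only peaks. Just outside the overlap threshold, 15 LG268-only peaks (1.15%) lay within 1 kb of a control peak, and 9 of the 300 control-only peaks within 1 kb of an LG268 peak.

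Single-list peaks were the lower-scoring and narrower ones in both lists. The peak score is the authors' value, its scale between libraries is not stated, and it is read here only as a rank or percentile within its own list (100 is the highest). Shared peaks had a median percentile of 76.6 in the LG268 list and 60.1 in the control list, LG268-only peaks 36.1 and control-only peaks 29.9. Median width was 304 bp for shared and 218 bp for LG268-only peaks of the LG268 list, and 238 and 177.5 bp for shared and control-only peaks of the control list. With each list cut into 10 equal bins by score, 3.35% of LG268 peaks in the highest bin lacked a control peak (1.36 to 6.78), 28.2% in the second bin, 52.6% in the third and 92.3% in the last. The control list ran the same way at a lower level, from 0 of 109 peaks in its highest bin (interval up to 3.33%) to 52.8% in its last. The highest LG268-only peak had rank 148 of 2089 and the highest control-only peak rank 149 of 1089.

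**Figure D1:**
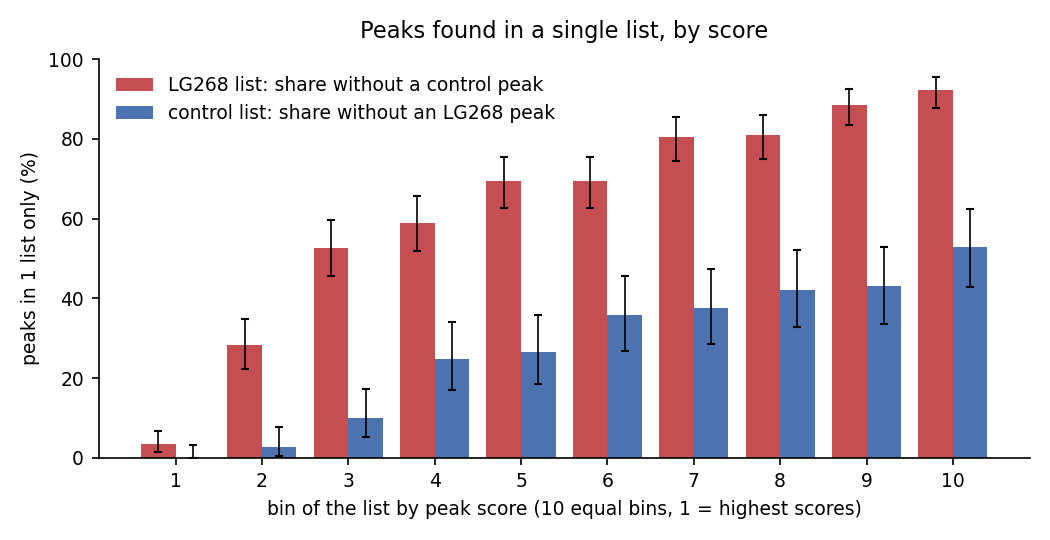
Share of peaks found in a single list (%, y axis) in 10 equal bins of the LG268 list (red) and of the control list (blue) by peak score (x axis, bin 1 has the highest scores); error bars are exact 95% intervals. The red bars rise from 3.35% to 92.3% and the blue bars from 0 to 52.8%.

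Outside repeats, each of the 50 highest LG268 peaks overlapped a control peak and each of the 50 highest control peaks an LG268 peak. Of the 100 highest LG268 peaks 96 did so, of the 250 highest 204, and of the 500 highest 329. In the other direction 400 of the 500 highest control peaks had an LG268 peak. The order within the top differed more than membership, since 60 of the 100 highest LG268 peaks were among the 100 highest of the control.

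Lipid synthesis genes led the shared sites. Outside repeats, the 10 with the highest LG268 scores were nearest to the stearoyl-CoA desaturase genes Scd1, Scd2 and Scd3, to Elovl5, Fasn and Srebf1, the last the transcription factor of fatty acid synthesis genes, to the sterol exporter gene Abcg1, to Cpt1a, whose enzyme admits fatty acids to mitochondria, and to Guca2b and Plekhb1. Each of the 10 was also called with RA and with GW3965. The Srebf1 peak in intron 1 of 18 (chr11:60210471-60210847) had rank 24 with LG268 and 21 in the control. Cpt1a, also with its peak in intron 1 of 18 (chr19:3325229-3325638), had ranks 30 and 39. Of these 10, the Elovl5 peak alone had a rank over 100 in the control, 444.

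The 10 highest LG268-only peaks outside repeats lay nearest to Hoxa2, Acadl, Mbd6, Zfand5, Klf10, Pcnxl4, Fignl1, 1700003L19Rik, Gpr37l1 and Gm11974. All but the Mbd6 peak were also called with RA, and only the Zfand5 peak with GW3965. Over all 1303 LG268-only peaks these shares were 35.9% and 5.14%. In the highest of 4 equal score bins of the LG268 list, outside repeats, they were 73.8% and 15.5%. The highest of the 10 peaks (chr6:52175398-52175675) had a score of 23.87 and rank 148 and was called in both day 8 libraries. It lay in intron 3 of 4 of a transcript not named here, with the Hoxa2 start as the nearest, at -10.7 kb. Hoxa2 is a hindbrain patterning gene of the Hox cluster. Acadl, the long-chain acyl-CoA dehydrogenase of fatty acid oxidation, had a peak in intron 1 of 10 (chr1:66862746-66863008, score 21.34, rank 176) under H3K27ac in both ES lists. Klf10, a zinc finger repressor, had a peak in intron 1 of 3 (chr15:38299435-38299656, score 18.39, rank 215), 1.16 kb from its start. By the definition of the class, the control list held no overlapping peak at any of the 10.

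The 10 highest control-only peaks outside repeats lay nearest to Col4a3bp, Lyrm9, Nek2, Smad2, Smad6, Gm15713, Mbd3, 2810049E08Rik, Klhl24 and Plxdc2. Their ranks ran from 190 to 299 of 1089. Col4a3bp, a ceramide transfer protein gene, had the highest, in intron 3 of 16 (chr13:96593689-96593893, score 15.33). The inhibitory Smad gene Smad6 had a promoter peak at -0.872 kb (chr9:64022822-64023040, score 12.38, rank 260), called again in both day 8 libraries. RA peaks were present at 8 of these 10 sites, all but those of 2810049E08Rik and Plxdc2. Over all 300 control-only peaks the share with an RA peak was 37.0%.

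The 3 classes had much the same place relative to genes. Within 1 kb of a transcription start lay 29.6% of LG268-only peaks (27.2 to 32.2), 25.95% of shared peaks (22.9 to 29.2) and 29.0% of control-only peaks (23.9 to 34.5). Introns held 35.8%, 34.7% and 35.7%, and intergenic sequence 37.2%, 41.5% and 38.0%. Outside repeats the median distance to the nearest start was 13.8 kb for LG268-only, 9.38 kb for shared and 10.2 kb for control-only peaks. With lists of equal length, 25.9% of LG268-only and 25.9% of shared peaks lay within 1 kb of a start.

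The share of promoter peaks was also taken in 4 equal score bins of the LG268 list, outside repeats. From the highest to the lowest bin, the share of LG268-only peaks within 1 kb of a start was 26.2% (18.0 to 35.8), 26.3%, 30.3% and 34.1% (29.7 to 38.6). Among shared peaks it was 35.1% (29.5 to 41.1), 32.1%, 29.9% and 17.9% (8.91 to 30.4, 10 of 56 peaks). The shares thus ran in opposite directions with score in the 2 classes, a trend that was not tested.

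Most repeat peaks were shared. Low-complexity sequence, satellites, simple repeats, rRNA elements and the mitochondrial genome held 143 shared peaks (18.2%, 15.6 to 21.1), 30 LG268-only peaks (2.30%, 1.56 to 3.27) and 10 control-only peaks (3.33%, 1.61 to 6.05). The telomere-type repeats (TTAGGG)n and (CCCTAA)n alone held 116 of the 786 shared peaks, 16 of the 1303 LG268-only peaks and 0 of the 300 control-only peaks (interval up to 1.22%). The 3 highest peaks of the whole LG268 list, nearest to Tmem196, Fgf14 and Mrgprd, lay in (TTAGGG)n, with scores from 207.43 to 228.16 and control ranks of 7, 8 and 3. Transposons held 55 shared peaks (6.997%), 97 LG268-only peaks (7.44%) and 33 of the 300 control-only peaks (interval 7.69 to 15.1%).

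**Figure D2:**
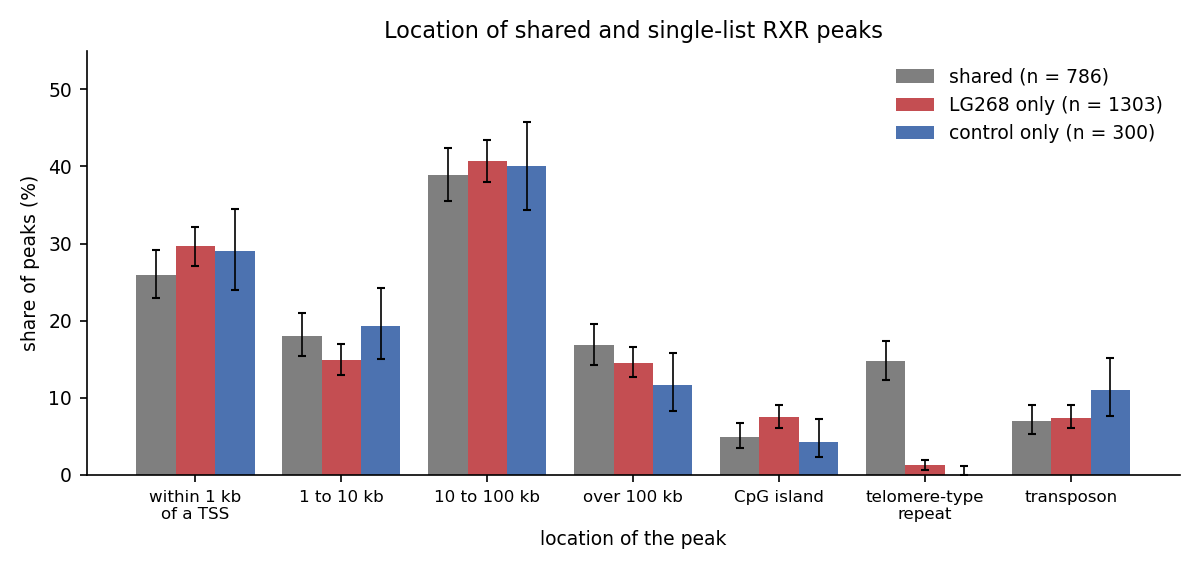
Share of shared (grey), LG268-only (red) and control-only (blue) peaks (%, y axis) by distance class, CpG island, telomere-type repeat and transposon (x axis); error bars are exact 95% intervals. The bars of the 3 classes are close in the distance classes, and the telomere-type repeats stand at 14.8%, 1.23% and 0.

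Ranks of shared peaks moved between the lists. Over the 643 shared peaks outside repeats, Spearman's rho of the scores was 0.504, and over the 143 in repeats 0.907. These are descriptions across peaks of 1 library against another and not across replicates. Since the LG268 list is longer, a shared peak tends to a higher percentile in it: 456 of the 643 had one (70.9%). Ranked among the shared peaks only, 306 of 643 were higher with LG268 (47.6%, 43.7 to 51.5), so the moves described below use the percentile among shared peaks.

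The peaks with the largest upward moves by that measure lay nearest to Pla2g7, Ankrd28, Vamp3, Tex14, Nav2, Irf2bpl, B630005N14Rik, Eci2, Spred2 and Phc2. Pla2g7, the platelet-activating factor acetylhydrolase gene, moved from 7.51 in the control to 80.3 with LG268 (chr17:43557504-43557916, -10.7 kb, control rank 968, LG268 rank 158). Eci2, an enoyl-CoA isomerase gene of fatty acid oxidation, had a promoter peak (chr13:34994242-34994508) that moved from 3.44 to 60.3. In the other direction the largest moves were at Map2k3, Nxn, Slc22a5, Daglb, Ccdc88b, Aff3, Cacnb3, Zfp219, Crtc2 and Zswim6. Map2k3, a MAP kinase kinase gene, moved from 73.3 to 3.18 (chr11:60976916-60977176, 45.0 kb from its start). Slc22a5, a carnitine transporter gene, moved from 80.0 to 13.9 at its promoter (chr11:53891928-53892113). Eci2 and Slc22a5, both genes of fatty acid use, thus moved in opposite directions.

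**Figure D3:**
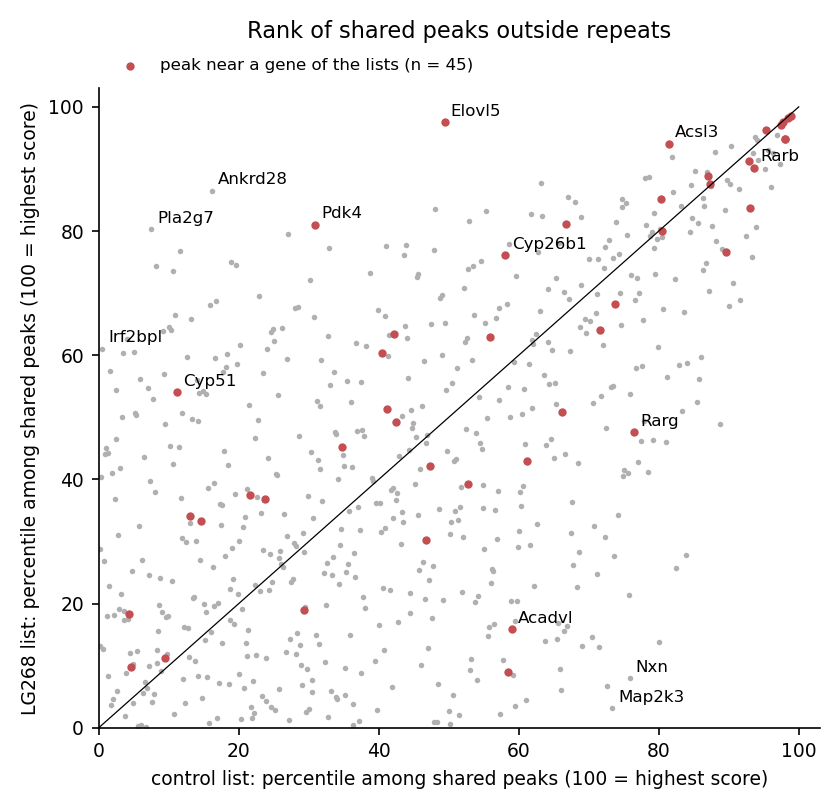
Percentile of each shared peak outside repeats among the shared peaks of the control list (x axis) and of the LG268 list (y axis), both from 0 to 100 with 100 the highest score; red points are the 45 peaks near genes of the lists and the line marks equal rank. Elovl5 and Pdk4 stand above the line, Acadvl and Map2k3 below it.

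A gene was counted if a list named it as nearest to a peak no more than 100 kb from its start, over the 14490 genes that any list of the series names. Of these, 10.9% had an LG268 peak and 5.94% a control peak, 6.47% had an LG268 and no control peak, 1.53% a control and no LG268 peak and 4.4% a peak in both. Of the 275 genes in 11 lists of pathways and lineages 208 are among them. Of these, 65 had an LG268 peak, 50 a control peak, 23 an LG268 and no control peak, 8 a control and no LG268 peak and 42 both. With a window of 10 kb the background was 6.15%, 3.29%, 3.77%, 0.911% and 2.38% in the same order, and 42 listed genes had an LG268 peak, 33 a control peak and 14 an LG268 and no control peak. LG268-only peaks were spread thinly: 968 genes had 1, 51 had 2 and 9 had 3. Those 9 were Cuedc1, Pknox2, Jarid2, Fam134b, Mir3089, D630024D03Rik, Ski, Gfra1 and Gse1. Of the 1097 LG268-only peaks outside repeats within 100 kb of a start, 122 (11.1%) were nearest to a gene that had a control peak elsewhere.

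LXR targets are genes of sterol export and of fatty acid synthesis. Those with a control peak mostly had an LG268 peak too, as did the background genes (638 of 860). Of 15 genes 9 had an LG268 peak and 9 a control peak, beside 10.9% and 5.94% of background genes. The 8 in common were Abca1, Abcg1, Arl4c, Fasn, Lpcat3, Scd1, Scd2 and Srebf1. Npc1 had an LG268 peak and no control peak, and Lpl a control peak and no LG268 peak (rank 1074 of 1089). Among the genes in common other than Arl4c and Lpcat3, the highest peak of each was near the top of both lists. The Arl4c peak had rank 358 with LG268 and 540 in the control, and the Lpcat3 peak ranks 475 and 277. The Abca1 promoter peak (chr4:53159582-53160091), at a sterol exporter gene, had rank 99 with LG268 and 102 in the control. A further Abca1 peak in intron 1 of 49 (chr4:53158726-53159121, rank 280) was called with LG268 only. Scd2 at -26.6 kb (rank 782) and Srebf1 at -2.47 kb (rank 1063) also had a further LG268-only peak.

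Within fatty acid synthesis and desaturation, 7 of 19 genes had an LG268 peak and 9 a control peak, and none had an LG268 peak alone. Of the background genes 10.9% had an LG268 peak, 5.94% a control peak and 6.47% an LG268 and no control peak. Elovl5, a fatty acid elongase, made the largest move of the list. Its intergenic peak at -6.63 kb (chr9:77910478-77910986) had a score of 8.82 and rank 444 of 1089 in the control, and a score of 77.1 and rank 20 of 2089 with LG268. Among shared peaks this is a move from 49.4 to 97.6. The Acsl3 promoter peak, whose sequence is printed above, had rank 148 in the control and 47 with LG268, or 81.4 and 94.1 among shared peaks. The highest peaks of Fasn, Scd2 and Scd3 differed by at most 0.382 among shared peaks, each between 97.5 and 98.9. Fads2, a desaturase, and Thrsp had a control-only peak. Of 23 genes of cholesterol synthesis, Cyp51, the lanosterol demethylase, had peaks in both lists 50.9 and 51.3 kb from its start.

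PPAR targets, mostly genes of fatty acid oxidation, had 15 of 25 with an LG268 peak and 10 with a control peak, and none with a control peak alone. The same shares over background genes were 10.9%, 5.94% and 1.53%. An LG268 and no control peak was found at 5 genes, Acadl, Acsl1, Ech1 and Klf10 among them. This is 5 of 25 beside 6.47% of all background genes, in a list chosen with earlier results known. The Acsl1 and Ech1 peaks were low, at ranks 1865 and 1761. With lists of equal length, 3 genes had an LG268 and no control peak, Acadl and Klf10 among them, and 2, Acadvl and Decr1, the reverse. Over background genes these shares were 2.38% and 2.52%.

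Pdk4, the kinase that switches off pyruvate dehydrogenase, made the largest move among the PPAR targets. Its distal peak at -13.6 kb (chr6:5509721-5510081) had a score of 6.67 and rank 655 in the control, and a score of 23.43 and rank 151 with LG268, or 30.9 and 81.0 among shared peaks. A further peak at the Pdk4 promoter (chr6:5496312-5496698, -0.227 kb, rank 1231) was called with LG268 only. Acadvl, the very long-chain acyl-CoA dehydrogenase, moved the other way, from 59.0 to 15.9 among shared peaks, and Cpt1a and Angptl4 moved by 1.02 and 1.91. Over 11 shared peaks of this list 6 were higher with LG268 and 5 lower, beside 306 and 337 of all 643.

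RAR targets had 12 of 20 genes with an LG268 peak and 11 with a control peak, beside 10.9% and 5.94% of background genes. Dhrs3, Meis2, Nrip1 and Rai1 had an LG268 and no control peak, with ranks from 1326 to 1940, all in the lower part of the list. Dhrs3 is also the nearest gene of 2 shared peaks more than 100 kb from its start, with ranks 68 and 510 with LG268 and 48 and 492 in the control. A control and no LG268 peak was found at 3 genes, among them Rara (rank 474 of 1089) and Stra8 (rank 760). With lists of equal length no RAR target had an LG268 peak alone and the same 3 had a control peak alone. Among the 8 genes with both, the Rarb promoter peak over the repeat printed above had rank 78 with LG268 and 52 in the control. Cyp26b1, which degrades RA, moved from 58.1 to 76.1 among shared peaks, and Rarg, another RA receptor gene, from 76.5 to 47.6. Over 10 shared peaks, 4 were higher with LG268 and 6 lower.

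**Figure D4:**
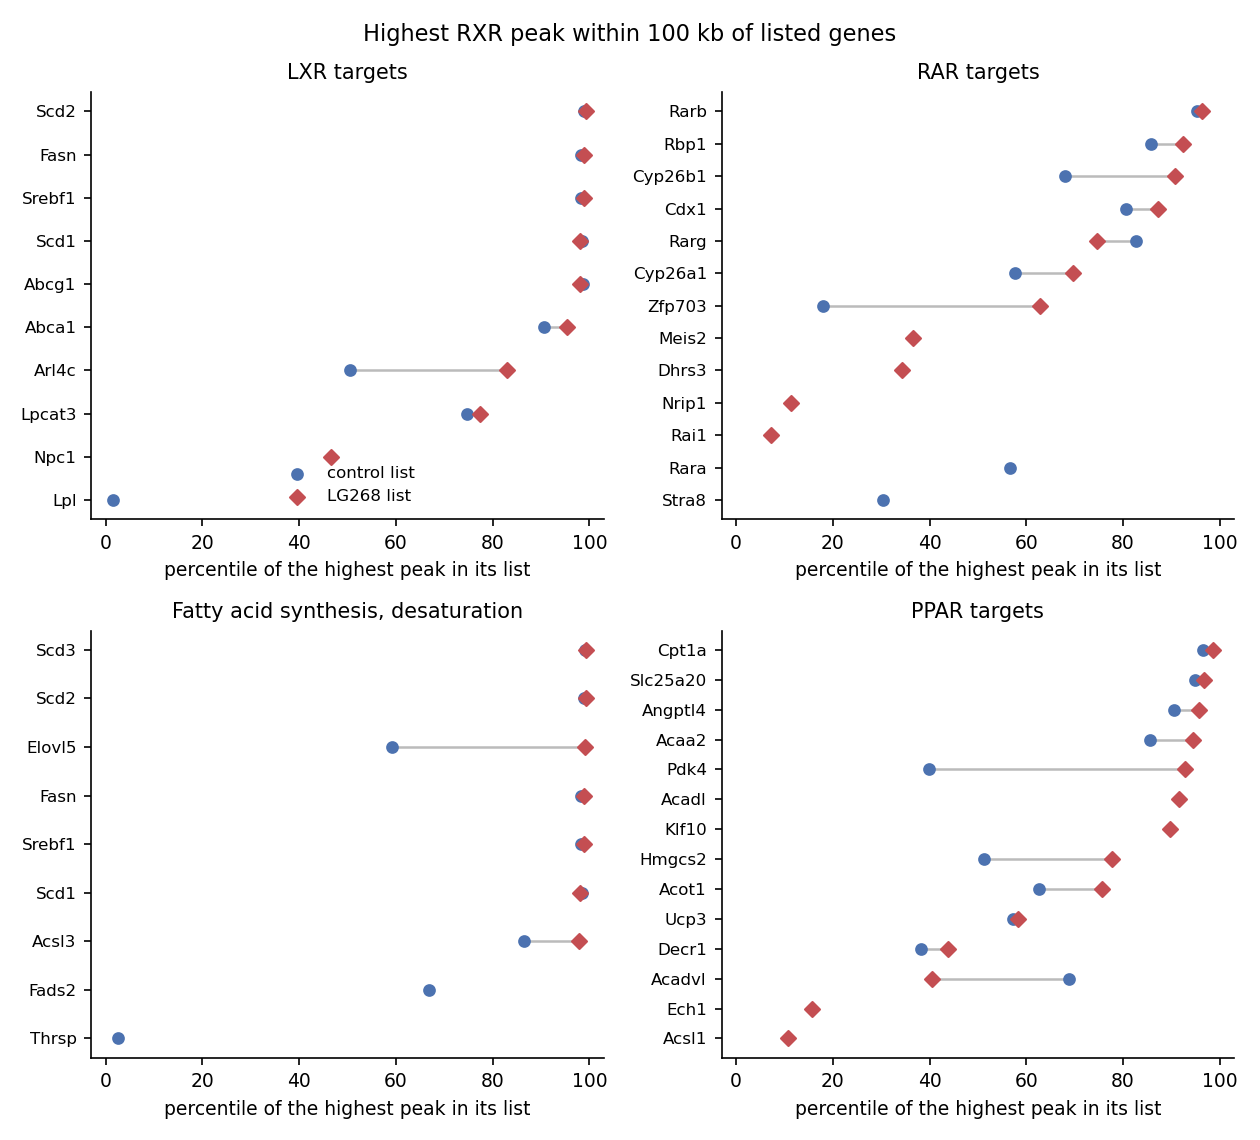
Percentile, within the whole list, of the highest RXR peak within 100 kb of each gene in the control list (blue circles) and in the LG268 list (red diamonds), x axis from 0 to 100 with 100 the highest score; a grey line joins genes with a peak in both, and a single symbol marks a peak in that list alone. Some genes of the 4 lists are not shown. Among those drawn, the lines of Pdk4 (39.9 to 92.8), Zfp703 (18.0 to 62.8) and Elovl5 (59.3 to 99.1) are long, in a measure that the longer LG268 list raises; among shared peaks the Zfp703 peak moved from 13.0 to 34.1.

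Among 31 nuclear receptor genes 9 had an LG268 peak and 8 a control peak. Among 19 coregulator genes the counts were 4 and 2, and over all background genes the shares were 10.9% and 5.94%. Nr2c1, an orphan receptor gene, had a wide LG268-only peak in intron 1 of 13 (chr10:94147921-94148433, score 15.81, rank 282), also called with RA and GW3965. Nr2f2 and Thrb had low LG268-only peaks (ranks 1626 and 1986), and Rara and Thra had control-only peaks. Nr2c2 counted in both lists, but its peaks lay at different places, in the control 0.875 kb and with LG268 40.9 kb from its start. Of 19 coregulator genes, Ncoa3, a coactivator, had a shared peak with rank 129 with LG268 and 57 in the control, and the corepressor Ncor1 and Nrip1 had LG268-only peaks.

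Lineage genes were counted in the same way, beside 10.9% of background genes with an LG268 peak and 5.94% with a control peak. Of 17 Hox genes 6 had an LG268 peak and 5 a control peak, with Hoxa2 the addition. Of 20 neural genes 4 had an LG268 peak (Mnx1, Msi1 and Neurog2 among them) and 0 a control peak. The Mnx1 and Msi1 peaks were also called with RA, the ranks of the 4 ran from 579 (Mnx1) to 1580 (Neurog2), and each lay over 10 kb from the start. Of 13 endoderm genes 5 had an LG268 and 2 a control peak, with Col4a1, Cubn and Sox7 LG268 only. One of 20 pluripotency genes, Sox2, had an LG268 peak, of rank 1936.

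With lists of equal length the added genes were fewer. An LG268 peak was then found at 5.8% of the background genes, an LG268 and no control peak at 2.38% and a control and no LG268 peak at 2.52%. Of all 208 listed genes the counts were 10 and 12. Acadl and Klf10 (PPAR targets), Nr2c1, Hoxa2, Mnx1, Msi1, Col4a1 and Sox7 were among the 10.

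Other RXR lists, which the classes did not use, held a higher share of shared than of single-list peaks, by the intervals given. An RA peak overlapped 85.2% of shared peaks (82.6 to 87.7), 35.9% of LG268-only peaks (33.3 to 38.6) and 37.0% of control-only peaks (31.5 to 42.7). A GW3965 peak overlapped 29.1%, 5.14% and 5.67%, and a peak in both day 8 libraries 41.1%, 7.83% and 11.7%. No other RXR list held a peak at 11.2% of shared, 56.0% of LG268-only and 51.7% of control-only sites. LG268-only and control-only peaks thus had overlapping intervals for RA, and both lay below shared peaks. The LG268 list was then limited to the length of the control list, with the RA list kept whole. An RA peak overlapped 56.1% of LG268-only (51.5 to 60.6), 48.3% of control-only (43.7 to 52.9) and 90.2% of shared peaks. Control-only peaks here include those whose LG268 peak lay below the cut, so the single-list classes are not defined alike. With the RA list also limited to this length, an RA peak overlapped 34.1% of LG268-only peaks.

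Recurrence with RA followed score. Outside repeats, 73.8% of LG268-only peaks in the highest of the 4 score bins had an RA peak (64.2 to 81.96), then 50.8%, 27.4% and, in the lowest bin, 22.8% (19.0 to 26.9). Shared peaks ran from 93.8% to 60.7% over the same bins and stayed above LG268-only peaks in each. LG268-only peaks with an RA peak had a median percentile of 51.8 and those without one 29.7, while 29.6% and 30.7% of them lay within 1 kb of a start.

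**Figure D5:**
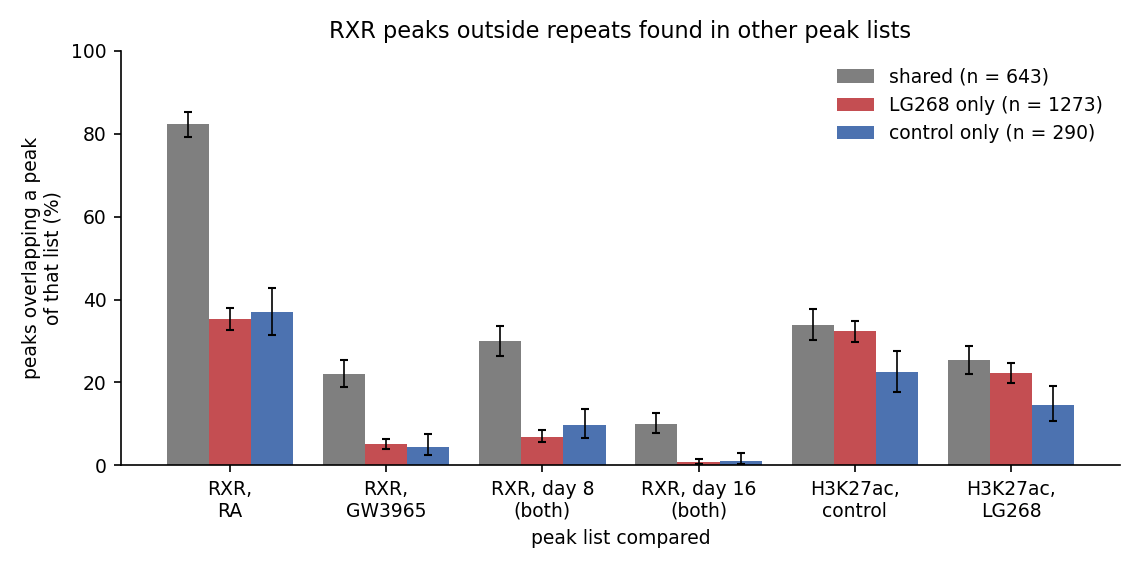
Share of shared (grey), LG268-only (red) and control-only (blue) RXR peaks outside repeats (%, y axis) that overlap a peak of other RXR lists or of the 2 H3K27ac lists (x axis; both means called in both replicates); error bars are exact 95% intervals. The grey bars are the highest for each RXR list, while the H3K27ac bars of shared and LG268-only peaks are close.

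H3K27ac peaks overlapped a minority of LG268-only sites in cells that had not received LG268. A control H3K27ac peak overlapped 31.9% of LG268-only (29.3 to 34.5), 36.6% of shared (33.3 to 40.1) and 22.3% of control-only peaks. An LG268 H3K27ac peak overlapped 21.9%, 28.8% and 14.3%, in a list of 12472 peaks against 21418 in the control. At promoters outside repeats the control mark overlapped 72.5% of LG268-only and 71.1% of shared peaks, and beyond 1 kb 14.8% and 16.6%. Few sites were marked with LG268 alone: 14 of 1273 LG268-only peaks (1.10%) and 15 of 643 shared peaks (2.33%) outside repeats. The mark in the control alone, from the longer H3K27ac list, overlapped 142 (11.15%) and 70 (10.89%) of the same peaks.

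The same mark was also looked up at promoters of marker genes of the labelled cell type and of other lineages. H3K27ac lay within 1 kb of the start of 6 of 10 ES cell markers in the control and 5 of 10 with LG268, with Sox2, Sall4, Utf1 and Lin28a in both lists and Nanog in neither. Pou5f1 had such a peak in the control list and none in the shorter LG268 list. Of 6 neural markers 3 had one in the control (Pax6 and Tubb3 among them) and 0 with LG268, and of 5 endoderm markers 0 in both. The share of all genes with such a peak was not computed, and the lists differ in length (21418 peaks in the control, 12472 with LG268). These counts therefore do not settle the cell type or a difference between the conditions.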

How the data were processed

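The deposited tables give 1 row per RXR or H3K27ac peak. Per the submitters' processing notes the tools were BWA 0.6.0, HOMER 4.2 and MACS2 2.0.10, and the builds mm9 and mm10 are listed without a role. Per the file headers, peaks were annotated against mm10. The peak score, the distance to the nearest start, the location class and the nearest gene are the authors' deposited values, and peaks were called per library. How the score was scaled is not given in the sources used here.

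From these, overlap (1 bp), ranks, shares with Clopper-Pearson intervals, gene counts and promoter matches were computed with pandas 2.3.3, scipy 1.17.1 and numpy 2.4.6 under Python 3.11.15, and drawn with matplotlib 3.10.9. Overlap counting was tested on simulated peaks, and the motif search on planted elements of both strands. The members and lists were chosen with earlier results of these data known. Genes were named as nearest to the 10 highest peaks of each class outside repeats, to the 10 largest rank moves each way by percentile within the whole list, with 3 or more LG268-only peaks, or as list members with a peak. The moves printed are those among shared peaks only, a ranking added after the values were seen, as were the 3 highest repeat peaks. The genes at the promoter matches are all of those found, and were named after the search. Some genes covered by this rule are counted but not reported by name here.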

Additional observations from a re-analysis of the deposited data

How the results depend on the processing

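Of 78 alternative values of the main results, 41 stayed within the main value's 95% interval (counts of genes: within 1.5 times) and 37 moved, all given here. With 50% reciprocal overlap, 66.2% of LG268 and 35.2% of control peaks were in a single list, and 27.2% of the highest of 4 LG268 score bins. With lists of equal length these list shares were 43.9% and 43.3%, with the higher-scoring 50% of each list 60.3% and 23.0%, without repeats 67.0% and 32.3% (34.2% of the highest bin), and without repeats at equal length, added after the data were seen, 468 of 936 LG268 peaks (50%). The promoter share of LG268-only and shared peaks was 37.3% and 35.6% within 5 kb and 20.4% and 19.8% by the annotation's promoter class. That of LG268-only peaks was 25.9% at equal length and 26.2% in the higher-scoring 50%, and that of shared peaks 32.2% without repeats. The repeat share of LG268-only and shared peaks was 4.81% and 23.1% at equal length, and 5.25% and 31.3% in the higher-scoring 50%. With 50% of the RXR peak covered, H3K27ac of the control list held 24.8% of LG268-only and 27.9% of shared peaks, and that of the LG268 list 16.4% and 20.9%. H3K27ac lists of equal length gave 25.4% and 28.6% for the control list. RXR lists of equal length gave 28.2% of LG268-only peaks under control H3K27ac, and 19.3% of LG268-only and 32.6% of shared peaks under LG268 H3K27ac; without repeats the last was 25.6%. Within 10 kb, 42 listed genes had an LG268 peak, 33 a control peak and 14 an LG268 and no control peak, beside 6.15%, 3.29% and 3.77% of all genes; at equal length 10 had an LG268 and no control peak. Among shared peaks only, also added later, 47.6% ranked higher with LG268. The cause of these moves was not tested, beyond the smaller lists or windows that the settings themselves impose. No paired analysis was possible because LG268 and control have 1 library each, and for the same reason no library could be left out. Unknown depth limits every single-list call: a site missing from a list was not called there, which does not show that RXR was absent.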
